A study of Homo sapiens with 12 samples.

Results

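The 41 genes described here are the snoRNA host genes and a set of well-studied long or structural noncoding RNAs. They were chosen by name, with earlier results of these data known. They are every gene whose symbol is SNHG followed by a number, of which 19 were found, and 22 further genes listed by symbol, all of which were found. They make up 41 of the 24395 features left after transcript counts were summed per gene, and 0.32% to 0.422% of the counts of a library. None passed the test in any comparison between the groups. By value most hosts lay lower in the dCas9-VP64, core and D1399Y groups than in dCas9, and the medians lay nearer 0 without dCas9 replicate 3. By role, 23 are snoRNA hosts, 8 are nuclear retained or chromatin associated RNAs, 7 are other long noncoding RNAs and 3 are small structural RNAs.

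Messenger RNA was sequenced from HEK293T, an established kidney line of human fetal origin that expresses SV40 large T antigen. Cells of all 4 groups were given plasmids for guide RNAs to 4 sites at the gene IL1RN, and the groups differed in the protein given with the guides. These were dCas9-VP64, dCas9 fused to a viral activation domain; dCas9-p300 core, dCas9 fused to the catalytic domain of the histone acetyltransferase p300; dCas9-p300 D1399Y, the same fusion with a change that removes the acetyltransferase activity; and dCas9 alone, which binds DNA without cutting it. The last 3 are called the core, D1399Y and dCas9 groups below. The comparisons ask which genes other than IL1RN differ when an activator is sent to that gene. Each group held 3 libraries, and the labels mention triplicate transfection without more detail, so the tests measure the spread between these samples, which may be technical. The proteins came from transfected plasmids, so cells that took up none may remain in each sample. In bulk libraries, fewer cells expressing a gene and less RNA per cell cannot be told apart. The identity of the cells was not checked with marker genes here.

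The largest library, core replicate 2, had 5154627 counts and the smallest, dCas9 replicate 3, 2442960, with the other 10 libraries between 3633590 and 4228316. Replicate 3 of dCas9 also stood apart in many of the listed genes, so the tests between groups that use it are given with and without it. Levels are in CPM, read counts scaled to the TMM-adjusted library size, and the ± after a log2 fold change is its standard error. As a check of the labels, IL1RN had 23.6, 19.3 and 31.3 CPM in the dCas9-VP64 libraries, 73.6, 87.9 and 89.2 CPM in the core libraries, 6.51, 7.52 and 9.32 CPM in the D1399Y libraries and 4.25, 6.696 and 9.26 CPM in the dCas9 libraries. The 3 core libraries exceeded the 9 others, and the 3 dCas9-VP64 libraries exceeded the 6 of the D1399Y and dCas9 groups.

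Small nucleolar RNAs guide chemical modification of ribosomal and spliceosomal RNA. Most are cut from introns of host genes, and in many noncoding hosts the spliced remainder is exported and removed by nonsense-mediated decay, so the level of the host transcript reflects both its synthesis and its turnover. Many host genes begin transcription at a C followed by pyrimidines, the terminal oligopyrimidine start they share with ribosomal protein genes. Among the nuclear RNAs, MALAT1 is a component of nuclear speckles and NEAT1 is the scaffold of paraspeckles, while KCNQ1OT1, MEG3, HOTAIR, JPX and FTX are known for roles at chromatin.

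The annotated starts of several hosts show that pyrimidine start, and those below are printed because they also hold the letters TATAA upstream. RefSeq promoter windows of GRCh38.p14 were at hand for 20 hosts in 21 windows. A start at C followed by pyrimidines, at least 4 pyrimidines in all and read on the sense strand, was found in 7 of the 21 windows (33.3%), against 0 of 14 windows of the other listed genes and 5.45% of all 35116 windows. TATAA on either strand, within 45 to 16 bases before the start, was found in 5 of the 21 host windows (23.8%), against 3 of the 14 windows of the other listed genes and 5.04% of all windows. The 14 windows cover 11 genes, and the 3 with TATAA belong to MEG3, in overlapping windows, and to MALAT1. Both features stood together in 4 of the 21 host windows, against 0.177% of all windows. The windows run from 30 bases before the start to 30 after it, 5′ to 3′, with the pyrimidine run from the first transcribed base in capitals:
SNHG5, chr6:85678704-85678763, minus strand: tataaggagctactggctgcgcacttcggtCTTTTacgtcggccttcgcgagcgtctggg
SNHG7, chr9:136728155-136728214, minus strand: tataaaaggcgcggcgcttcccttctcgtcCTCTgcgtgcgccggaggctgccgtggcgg
SNHG12, chr1:28581844-28581903, minus strand: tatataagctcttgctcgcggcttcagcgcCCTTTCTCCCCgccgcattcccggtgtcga
ZFAS1, chr20:49278612-49278671, plus strand: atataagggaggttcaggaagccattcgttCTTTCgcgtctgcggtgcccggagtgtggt
The other 3 windows with the pyrimidine start belong to SNHG4, SNHG18 and SNHG32. A match describes these letters only, and a window without one says nothing of the factors that act there.

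MIR17HG, the host of the miR-17-92 cluster of growth-promoting microRNAs, is shown with its products because it was highest in replicate 3 of each group. The 6 mature sequences lie on chr13:91350618-91351382, plus strand (GRCh38.p14, RefSeq), and their seeds, bases 2 to 8, are in capitals:
hsa-miR-17-5p: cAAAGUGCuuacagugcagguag
hsa-miR-20a-5p: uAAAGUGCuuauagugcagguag
hsa-miR-18a-5p: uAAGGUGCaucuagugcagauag
hsa-miR-19a-3p: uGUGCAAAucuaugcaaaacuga
hsa-miR-19b-3p: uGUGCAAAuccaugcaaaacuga
hsa-miR-92a-3p: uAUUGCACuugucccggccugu
The seed AAAGUGC is shared by miR-17-5p and miR-20a-5p, and GUGCAAA by miR-19a-3p and miR-19b-3p, while miR-18a-5p and miR-92a-3p each have their own. The libraries count the host transcript and not the microRNAs.

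Of the 41 genes, 36 had enough counts to be tested. The 5 others had few counts over all 12 libraries together, 75 for CYTOR, 48 for RPPH1, 26 for H19, 17 for TERC and 0 for SNHG18. The 0 counts of SNHG18 allow a level of up to 0.0799 CPM over the 12 libraries, the upper end of a 95% interval for counting error only. TERC, the RNA template of telomerase, RPPH1, the RNA of ribonuclease P, and RMRP, the RNA of RNase MRP, as a rule carry no poly(A) tail, and the libraries were prepared with a messenger RNA kit. TERC had 2, 4, 3 and 8 counts in the dCas9-VP64, core, D1399Y and dCas9 groups. Its levels were 0.496, 0 and 0 CPM in the dCas9-VP64 libraries, 0.5297, 0.193 and 0.263 CPM in the core libraries, 0.543, 0.289 and 0 CPM in the D1399Y libraries and 0.8501, 0.478 and 1.11 CPM in the dCas9 libraries. RPPH1 had 11, 11, 8 and 18 counts in the same groups, and its levels were 1.49, 0.763 and 0.509 CPM in the dCas9-VP64 libraries, 1.059, 0.386 and 1.32 CPM in the core libraries, 0.543, 0.867 and 0.798 CPM in the D1399Y libraries and 1.98, 2.15 and 0.741 CPM in the dCas9 libraries. CYTOR had 10, 28, 16 and 21 counts and H19, an imprinted fetal RNA, 5, 11, 7 and 3. No difference between groups can be read from counts this low.

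Levels between genes were compared per length, with the transcript row that held the most counts and the length of its GENCODE match, which 39 of the 41 genes had. The row used held 5.64% of the summed counts of SNHG29, 25.94% of those of SNHG16 and 23.44% of those of ZFAS1. It held 100% of those of SNHG5, GAS5, NORAD and TUG1. Places between genes of a single row and of several rows thus depend on how reads shared by isoforms were counted, which was not given. SnoRNA hosts filled the top of the order by this measure. SNHG5 had a median of 143.9 CPM per kilobase over 12 libraries (range 119.5 to 210.2), GAS5 125.6 (range 109.1 to 179.4) and SNHG16 94.6 (range 83.5 to 105). SNHG6, SNHG1, SNHG32 and SNHG29 followed with medians of 65.8, 54.5, 53.9 and 48.1 CPM per kilobase, and their ranges overlap those of their neighbours. The first gene that is no host was NORAD, an RNA that binds Pumilio proteins, at 41.3 CPM per kilobase (range 27.9 to 56.6), beside SNHG7 at 39.7, ZFAS1 at 38.06 and TUG1 at 38.03. MALAT1 and NEAT1, among the most abundant nuclear RNAs of many tissues, had medians of 12.1 and 11.3 CPM per kilobase. NEAT1 was counted in 1 transcript row, of 3524 bases. How fully the messenger RNA kit captured these RNAs was not tested, so their values need not be their levels in the cells. KCNQ1OT1 had 2.53 and MEG3 1.21.

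**Figure D1:**
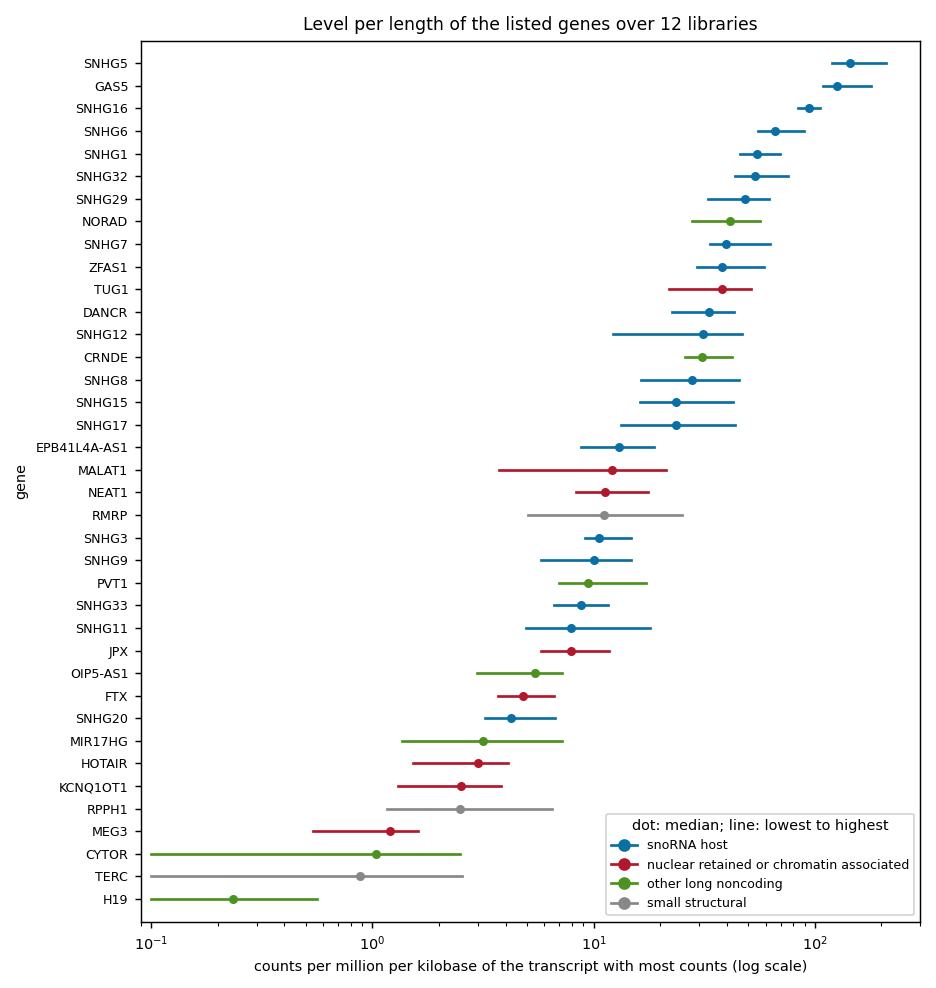
CPM per kilobase (log axis) of the 38 genes with a length and a median above 0, each with its median over 12 libraries (dot) and its lowest and highest library (line; lines that begin at 0.1 stand for a lowest value of 0). Values use the transcript row with most counts, whose share of a gene's counts differs between genes. By that row snoRNA hosts hold the first 7 places, from SNHG5 at 143.9 to SNHG29 at 48.1, and the other roles are spread below them.

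The hosts with the most counts were SNHG29 and SNHG16. SNHG16, host of SNORD1 snoRNAs, had 738, 635 and 674 CPM in the dCas9-VP64 libraries, 739, 651 and 634 CPM in the core libraries, 723, 747 and 668 CPM in the D1399Y libraries and 749.5, 688 and 788 CPM in the dCas9 libraries. SNHG29 had 841, 888 and 683 CPM in the dCas9-VP64 libraries, 894, 804 and 649 CPM in the core libraries, 797, 735 and 863 CPM in the D1399Y libraries and 900.0, 783 and 1002 CPM in the dCas9 libraries. Both were highest in dCas9 replicate 3 and lowest in core replicate 3, and the 4 groups overlap. SNHG29 is listed in 32 transcript rows and SNHG16 in 4, so their summed counts may hold the same reads more than once.

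GAS5, the host of many box C/D snoRNAs that is also known as a growth-arrest transcript, had 82.6, 85.8 and 72.5 CPM in the dCas9-VP64 libraries, 80.5, 68.96 and 68.9 CPM in the core libraries, 77.6, 75.2 and 88.6 CPM in the D1399Y libraries and 85.01, 78.2 and 113 CPM in the dCas9 libraries. Replicate 3 of dCas9 stood above the 11 other libraries, which lay between 68.9 and 88.6 CPM. ZFAS1, host of SNORD12 snoRNAs and a neighbour of ZNFX1 on the opposite strand, had 167, 184 and 132 CPM in the dCas9-VP64 libraries, 170.3, 153 and 130.2 CPM in the core libraries, 163, 144 and 145 CPM in the D1399Y libraries and 194, 172 and 233 CPM in the dCas9 libraries. Its 3 core and 3 D1399Y libraries all lay below the 3 dCas9 libraries, though core replicate 1, at 170.3 CPM, was close to dCas9 replicate 2, at 172 CPM. SNHG5 had 63.03, 65.9 and 56.8 CPM in the dCas9-VP64 libraries, 67, 51.4 and 55.8 CPM in the core libraries, 65.4, 56.4 and 60.7 CPM in the D1399Y libraries and 71.1, 55.96 and 90.4 CPM in the dCas9 libraries. The same library, dCas9 replicate 3, was highest, and the groups overlap.

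SNHG1, host of several box C/D snoRNAs, had 76.2, 90.8 and 80.2 CPM in the dCas9-VP64 libraries, 81.6, 68.4 and 80.5 CPM in the core libraries, 89.3, 72.3 and 83.8 CPM in the D1399Y libraries and 87.3, 74.1 and 104 CPM in the dCas9 libraries. SNHG6 had 43.9, 45.04 and 36.9 CPM in the dCas9-VP64 libraries, 42.4, 36.7 and 35.3 CPM in the core libraries, 40.7, 41.6 and 43.4 CPM in the D1399Y libraries and 47.6, 39.5 and 57.05 CPM in the dCas9 libraries. SNHG32 had 70.2, 102 and 83.7 CPM in the dCas9-VP64 libraries, 77.6, 78.8 and 74.98 CPM in the core libraries, 77.6, 68.5 and 87.3 CPM in the D1399Y libraries and 73.1, 83.7 and 114 CPM in the dCas9 libraries. In each of these 3 hosts dCas9 replicate 3 was the highest of the 12 libraries, and the groups overlap. SNHG7 had 61.5, 67.4 and 61.6 CPM in the dCas9-VP64 libraries, 68.6, 67.2 and 57.1 CPM in the core libraries, 68.7, 59.5 and 63.9 CPM in the D1399Y libraries and 60.6, 66 and 102 CPM in the dCas9 libraries, with the same library highest.

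SNHG3, host of box H/ACA snoRNAs next to RCC1, had 42.9, 41.7 and 45.05 CPM in the dCas9-VP64 libraries, 38.1, 45.98 and 48.4 CPM in the core libraries, 50.5, 42.5 and 61.2 CPM in the D1399Y libraries and 60.4, 51.9 and 61.1 CPM in the dCas9 libraries. The dCas9-VP64 and the core libraries all lay below the 3 dCas9 libraries, whereas D1399Y spanned both. SNHG17 had 39.5, 49.4 and 43.5 CPM in the dCas9-VP64 libraries, 41.05, 36.7 and 40.3 CPM in the core libraries, 35.8, 21.97 and 37.3 CPM in the D1399Y libraries and 40.8, 36.1 and 70.4 CPM in the dCas9 libraries. It was highest in dCas9 replicate 3 and lowest in D1399Y replicate 2. SNHG20 had 14.6, 14.5 and 10.4 CPM in the dCas9-VP64 libraries, 9.53, 8.89 and 7.89 CPM in the core libraries, 8.96, 7.52 and 10.4 CPM in the D1399Y libraries and 7.08, 11.7 and 8.89 CPM in the dCas9 libraries. Its 3 dCas9-VP64 libraries lay above the 3 core libraries and overlapped the dCas9 libraries.

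The remaining hosts are given as mean ± SD over the 12 libraries. DANCR, a host known for keeping progenitor cells undifferentiated, was at 30.97 ± 6.12 CPM, EPB41L4A-AS1 at 38.9 ± 8.78, SNHG8 at 40.04 ± 9.73 and SNHG15 at 24.9 ± 6.93. SNHG33 was at 25.8 ± 2.903 CPM, SNHG12 at 20.5 ± 5.92, SNHG4 at 19.8 ± 2.75, SNHG10 at 9.32 ± 2.06, SNHG11 at 8.85 ± 3.68 and SNHG9 at 2.88 ± 0.729. By the ratio of highest to lowest library, SNHG12 (8.38 to 31.9 CPM, 3.8-fold) and SNHG11 (5.1 to 18.5 CPM, 3.63-fold) varied most among them. In SNHG4 the 3 core libraries (23.8, 19.9 and 22.4 CPM) lay above the 3 dCas9-VP64 libraries (17.1, 17.6 and 18.1 CPM).

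MALAT1 varied more between libraries than any other tested gene of the list, by 5.7-fold from its lowest to its highest. It had 80.7, 39.7 and 168 CPM in the dCas9-VP64 libraries, 32.6, 35.7 and 186 CPM in the core libraries, 35.8, 167 and 109 CPM in the D1399Y libraries and 130.3, 133 and 101 CPM in the dCas9 libraries. The low values, under 40 CPM, were in 1 dCas9-VP64, 2 core and 1 D1399Y library, and the group means of 96.2, 84.6, 104 and 121.6 CPM carry standard deviations of 65.7, 87.4, 65.8 and 17.8 CPM. RMRP was the next most variable by coefficient of variation. It had 6.701, 2.54 and 3.05 CPM in the dCas9-VP64 libraries, 2.38, 1.74 and 2.89 CPM in the core libraries, 1.36, 6.65 and 1.597 CPM in the D1399Y libraries and 5.95, 5.5 and 3.33 CPM in the dCas9 libraries. The 3 core libraries lay below the 3 dCas9 libraries, and its counts ran from 5 to 27 per library, so counting error is wide.

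NEAT1 had 29.5, 40.7 and 56 CPM in the dCas9-VP64 libraries, 34.4, 36.7 and 62.1 CPM in the core libraries, 30.9, 40.2 and 47.6 CPM in the D1399Y libraries and 29.5, 39.2 and 43.3 CPM in the dCas9 libraries. In each group replicate 3 was the highest library, and the group ranges overlap. TUG1, a long RNA with nuclear and cytoplasmic roles, had 336, 267 and 310.5 CPM in the dCas9-VP64 libraries, 281, 276 and 320.5 CPM in the core libraries, 282, 386 and 294 CPM in the D1399Y libraries and 217, 286 and 163 CPM in the dCas9 libraries. The lowest values were dCas9 replicate 3 and dCas9 replicate 1. KCNQ1OT1, the imprinted antisense RNA of the KCNQ1 locus, had 234.8, 202 and 259.6 CPM in the dCas9-VP64 libraries, 202, 220.0 and 349.7 CPM in the core libraries, 228, 304 and 255 CPM in the D1399Y libraries and 225, 262 and 120.0 CPM in the dCas9 libraries. Its highest library was core replicate 3 and its lowest dCas9 replicate 3.

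JPX, an RNA of the X-inactivation centre, had 12.7, 14.5 and 13.2 CPM in the dCas9-VP64 libraries, 15.1, 10.6 and 13.4 CPM in the core libraries, 12.5, 9.83 and 11.7 CPM in the D1399Y libraries and 19.8, 13.4 and 17.4 CPM in the dCas9 libraries. The 3 D1399Y libraries lay below the 3 dCas9 libraries. The other RNAs of this role were low, FTX at 11.5 ± 1.63 CPM, HOTAIR at 20.1 ± 3.75 CPM and MEG3 at 4.43 ± 1.07 CPM (mean ± SD, n = 12). In MEG3 the 3 D1399Y libraries (3.26, 3.76 and 3.46 CPM) lay below the 3 dCas9 libraries (4.25, 4.54 and 6.67 CPM).

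Of the other long noncoding RNAs, NORAD had 223, 225 and 234 CPM in the dCas9-VP64 libraries, 183, 180.2 and 246 CPM in the core libraries, 206, 302 and 228 CPM in the D1399Y libraries and 217, 194 and 149 CPM in the dCas9 libraries. The 3 dCas9-VP64 libraries lay above the 3 dCas9 libraries. PVT1, the neighbour of MYC, had 22.3, 15.8 and 21.1 CPM in the dCas9-VP64 libraries, 16.1, 12.8 and 14.5 CPM in the core libraries, 13.6, 11.8 and 17.8 CPM in the D1399Y libraries and 20.4, 16.02 and 29.3 CPM in the dCas9 libraries. It was highest in dCas9 replicate 3 and lowest in D1399Y replicate 2. OIP5-AS1, a cytoplasmic RNA that binds the protein HuR, had 49.9, 48.1 and 37.4 CPM in the dCas9-VP64 libraries, 45.02, 47.9 and 42.9 CPM in the core libraries, 55.6, 63.6 and 44.5 CPM in the D1399Y libraries and 56.1, 47.6 and 26.3 CPM in the dCas9 libraries. The lowest library was dCas9 replicate 3 and the highest D1399Y replicate 2. CRNDE was at 39.8 ± 6.59 CPM (mean ± SD, n = 12). The use of strand in counting was not given in the sources used here. For KCNQ1OT1, HOTAIR, ZFAS1, EPB41L4A-AS1, OIP5-AS1 and SNHG3 reads of an overlapping gene cannot be told apart.

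**Figure D2:**
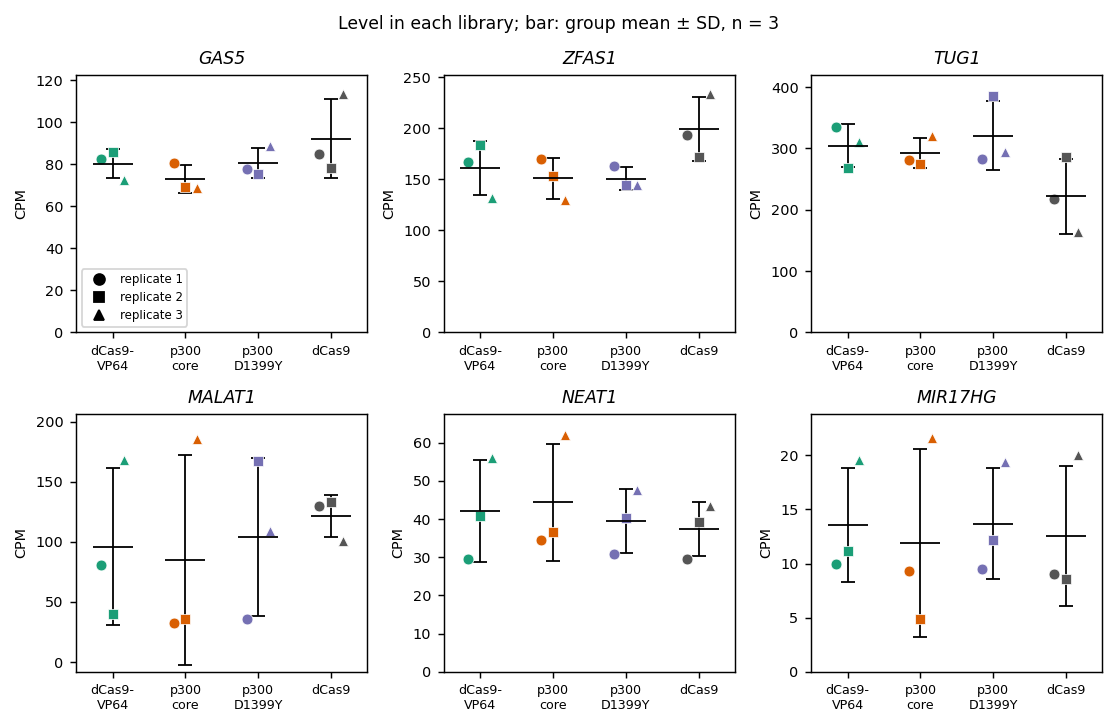
CPM in each library for 6 genes, with the 4 groups along the x axis, 1 symbol per replicate number, and bars for the group mean ± SD (n = 3). GAS5 and ZFAS1 are highest and TUG1 lowest in dCas9 replicate 3, MALAT1 spreads from 32.6 to 185.5 CPM, and the triangles of NEAT1 and MIR17HG, replicate 3, top each group.

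The first test asked whether any of the 4 groups differed. In edgeR's quasi-likelihood F-test with Benjamini-Hochberg adjustment over all 14613 tested genes, 0 of the 36 genes were called at an adjusted p under 0.05, against 3 of all tested genes (0.0205%), which were IL1RN, EP300 and KDR. At an unadjusted p under 0.05 the counts were 0 of the 36 and 270 of all tested genes. The genes of smallest p were SNHG3 (unadjusted p = 0.0608), PVT1 (0.0653), TUG1 (0.0657), ZFAS1 (0.0721), SNHG20 (0.0751), JPX, SNHG17 and NORAD, each with an adjusted p of 0.985. Without dCas9 replicate 3, 0 of the 36 genes were called, against 6 of all 14764 tested genes (0.0406%). An unadjusted p under 0.05 was then reached by 0 of the 36 and 412 of all tested genes.

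Between dCas9-VP64 and dCas9, 0 of the 36 genes were called by edgeR, against 0.0% of all tested genes, and DESeq2 and limma-voom also called 0 of them. At an unadjusted p under 0.05 there were 2 of the 36 genes and 449 of all tested genes. The 2 were SNHG3 at log2 -0.42 ± 0.16 (unadjusted p = 0.0197, adjusted p = 0.929, edgeR) and TUG1 at log2 0.45 ± 0.19 (unadjusted p = 0.03, adjusted p = 0.929, edgeR). The median log2 fold change was -0.14, with 26 of 36 genes below 0 (72.2%), against a median of 0.0049 and 49.1% below 0 over all tested genes. The hosts stood at a median of -0.17 with 20 of 22 below 0. The 3 dCas9-VP64 libraries lay wholly above the 3 dCas9 libraries in 1 gene, NORAD, and wholly below in 1, SNHG3, against 3.2% and 2.74% of all tested genes. Without dCas9 replicate 3 the median was -0.0089, with 18 of 36 genes and 12 of 22 hosts below 0, against 50.2% of all tested genes. SNHG3 then stood at log2 -0.37, still at an unadjusted p under 0.05, and TUG1 at 0.28, which was not. Of the 36 genes SNHG3 alone was under 0.05, against 624 of all 14764 tested genes.

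Between core and dCas9, edgeR called 0 of the 36 genes, against 0.00684% of all tested genes, which is IL1RN alone, and DESeq2 and limma-voom called 0 of the 36. An unadjusted p under 0.05 was reached by 4 of the 36 genes and 454 of all tested genes. These were SNHG3 at log2 -0.38 ± 0.16 (unadjusted p = 0.0287, adjusted p = 0.879, edgeR), ZFAS1 at log2 -0.40 ± 0.16 (unadjusted p = 0.0262, adjusted p = 0.879, edgeR), PVT1 at log2 -0.59 ± 0.25 (unadjusted p = 0.0326, adjusted p = 0.879, edgeR) and GAS5 at log2 -0.34 ± 0.15 (unadjusted p = 0.0468, adjusted p = 0.879, edgeR). MALAT1 stood at log2 -0.53 ± 0.65 and NEAT1 at log2 0.25 ± 0.27, and neither passed. Both values moved without core replicate 3, where MALAT1 stood at -1.83 (unadjusted p = 0.00933, adjusted p = 0.9994, edgeR) and NEAT1 at -0.064, and in pool CV41 they stood at -1.83 and -0.065. Without core replicate 1 or 2, MALAT1 stood at -0.15 and -0.16. The median was -0.23, with 29 of 36 genes below 0 (80.6%), against 0.015 and 47.5% over all tested genes, and 20 of 22 hosts were below 0 at a median of -0.25. The core libraries lay wholly below the dCas9 libraries in RMRP, SNHG3 and ZFAS1 and wholly above in none of the 36, against 3.02% and 3.89% of all tested genes. The median was -0.075 without dCas9 replicate 3, with 25 of 36 genes and 17 of 22 hosts below 0, against 51.1% of all tested genes. An unadjusted p under 0.05 was then reached by RMRP alone of the 36, against 425 of all 14764 tested genes. GAS5 then stood at log2 -0.17, PVT1 at -0.33, SNHG3 at -0.34 and ZFAS1 at -0.27.

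Between D1399Y and dCas9, edgeR called 0 of the 36 genes, against 0.0% of all tested genes, and DESeq2 and limma-voom called 0 of the 36. An unadjusted p under 0.05 was reached by 6 of the 36 genes and 861 of all tested genes. TUG1 stood at log2 0.53 ± 0.19 (unadjusted p = 0.0141, adjusted p = 0.632, edgeR) and NORAD at log2 0.39 ± 0.18 (unadjusted p = 0.0469, adjusted p = 0.632, edgeR). JPX stood at log2 -0.56 ± 0.22 (unadjusted p = 0.0206, adjusted p = 0.632, edgeR), and ZFAS1, SNHG17 and PVT1 at log2 -0.40 ± 0.16, -0.61 ± 0.25 and -0.58 ± 0.25. The median was -0.19 with 28 of 36 genes below 0 (77.8%), against 0.0017 and 49.8% over all tested genes, and 21 of 22 hosts were below 0. The D1399Y libraries lay wholly below the dCas9 libraries in JPX, MEG3 and ZFAS1 and wholly above in none of the 36, against 3.82% and 3.44% of all tested genes. The median was -0.052 without dCas9 replicate 3, with 24 of 36 genes and 17 of 22 hosts below 0, against 49.3% of all tested genes. Of the 36 genes only JPX (log2 -0.54) and TUG1 (log2 0.35) then had an unadjusted p under 0.05, against 373 of all 14764 tested genes. NORAD then stood at log2 0.26, ZFAS1 at -0.27, SNHG17 at -0.27 and PVT1 at -0.32. D1399Y replicate 2, which also differed from the others by transcript length, remains in these values. TUG1 and NORAD were highest, and JPX, PVT1 and SNHG17 lowest, in that library, whereas ZFAS1 was at neither extreme there. Over all alternative runs, which include leaving that library out, JPX ran from log2 -0.71 to -0.44 and TUG1 from 0.35 to 0.76. These 3 comparisons share the dCas9 libraries, so their values are not independent.

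Between core and D1399Y, which differ by the D1399Y change, 0 of the 36 genes were called by edgeR, against 0.00684% of all tested genes, and by DESeq2 and limma-voom likewise. No gene of the 36 reached an unadjusted p under 0.05, against 272 of all tested genes. The median was -0.026 with 21 of 36 genes below 0 (58.3%), against 0.0050 and 48.9% over all tested genes, and the hosts were divided, 12 of 22 below 0. With the log2 total count of each library as a covariate, a setting chosen after the data were seen, the median was 0.052. It thus lay on the other side of 0, with 7 of 22 hosts below 0, against 7303 of all 14613 tested genes. In that fit 2 of the 36 genes, OIP5-AS1 and SNHG17, had an unadjusted p under 0.05, against 1030 of all 14613 tested genes. Across the 36 genes the fold changes ran from log2 -0.45 (RMRP) to 0.31 (SNHG17). The core libraries lay wholly above the D1399Y libraries in 0 of the 36 genes and wholly below in 0, against 5.41% and 4.49% of all tested genes.

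Between core and dCas9-VP64, 0 of the 36 genes were called by edgeR, against 0.00684% of all tested genes, and 0 by DESeq2 and limma-voom. One gene of the 36, SNHG20, reached an unadjusted p under 0.05, at log2 -0.59 ± 0.24 (unadjusted p = 0.0263, adjusted p = 0.9998, edgeR), against 309 of all tested genes. The median was -0.093 with 28 of 36 genes below 0 (77.8%), against -0.0020 and 50.5% over all tested genes. SNHG4 was the 1 gene with all core libraries above, and SNHG20 the 1 gene with all core libraries below, against 5.65% and 4.63% of all tested genes.

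**Figure D3:**
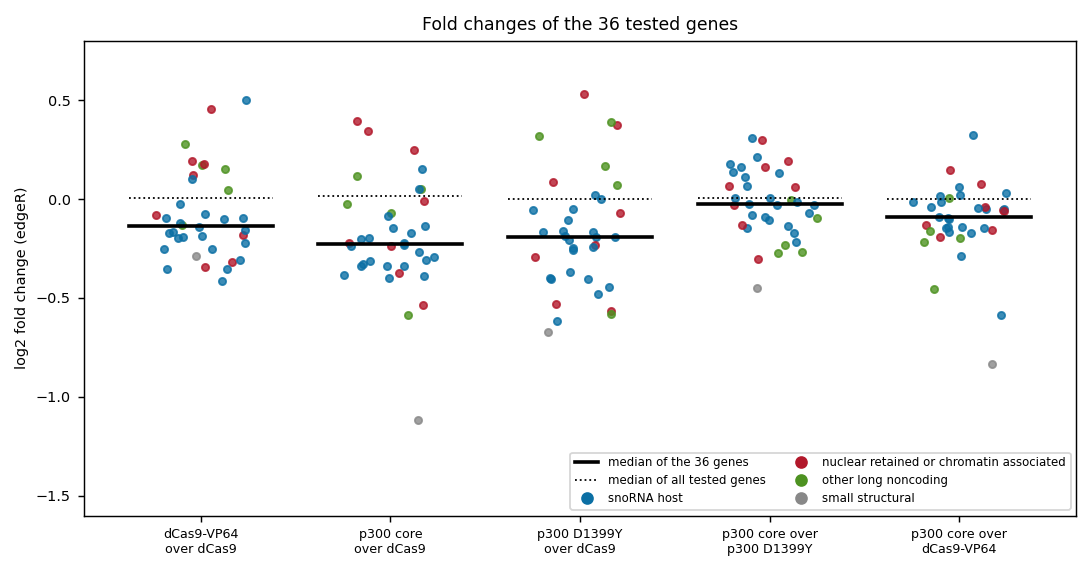
Log2 fold change (edgeR, first-named group over second) of the 36 tested genes in the 5 comparisons, coloured by role, with the median of the 36 genes (solid line) and of all tested genes (dotted line). The solid line lies at -0.14, -0.23 and -0.19 in the 3 comparisons with dCas9, at -0.026 for core over D1399Y and at -0.093 for core over dCas9-VP64, and no gene passed the test.

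The library with the lowest total stood apart. In dCas9 replicate 3, 18 of the 36 genes reached their highest CPM and 5 their lowest, against 30.7% and 33.1% of all tested genes. The median of the 22 hosts, as log2 CPM minus each gene's mean over 12 libraries, was 0.45 there, against -0.18 to 0.14 in the 11 others. The 23 protein-coding snoRNA hosts, mostly ribosomal protein genes, stood at 0.44 in the same library. The genes with their lowest CPM there were KCNQ1OT1, TUG1, NORAD, OIP5-AS1 and SNHG4.

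These deviations differed by transcript length. Set against the mean of the other 11 libraries, dCas9 replicate 3 was above 0 in all 18 listed genes of 1500 bases or fewer, at a median log2 of 0.52, and in 10 of 11 genes of 1500 to 5000 bases, at a median of 0.39. Of the 5 genes over 5000 bases, 4 were below 0, at a median of -0.84 over the 5, with MALAT1 at 0.28 as the exception. Over all tested genes with a length (93.6%), the medians were 0.52, 0.071 and -0.71 in the same 3 classes of 1892, 8700 and 3088 genes. The listed genes of 1500 bases or fewer had nearly the median of all genes of that length. The lengths that bound the classes were chosen after the values were seen.

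**Figure D4:**
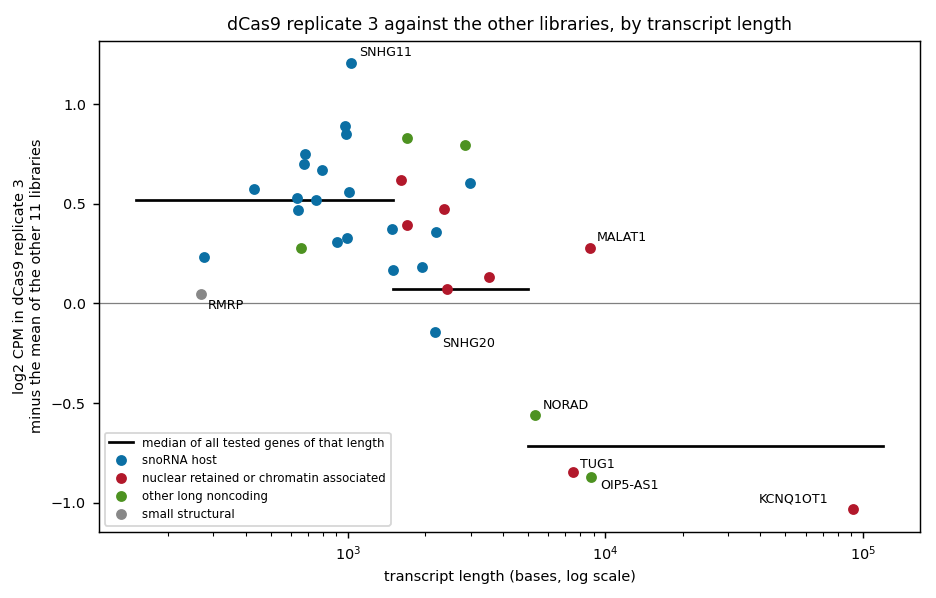
Log2 CPM of dCas9 replicate 3 minus the mean of the other 11 libraries (y axis) against transcript length (x axis, log scale) for 34 tested genes with a length, coloured by role, with black lines for the median of all tested genes in 3 length classes (0.52, 0.071 and -0.71). The listed genes of 1500 bases or fewer lie on the positive side around the first line, and TUG1, OIP5-AS1, NORAD and KCNQ1OT1 lie below 0.

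Between the libraries of highest and lowest total, whose totals differed by 2.11-fold, the unscaled counts of the 16 tested hosts of 1500 bases or fewer differed by 0.84-fold (SNHG11) to 1.89-fold (SNHG9), with a median of 1.25-fold. GAS5 had 357 counts in core replicate 2 and 306 in dCas9 replicate 3, a ratio of 1.17. SNHG5 had 266 counts in core replicate 2 and 244 in dCas9 replicate 3, a ratio of 1.09. KCNQ1OT1 had 1139 counts in core replicate 2 and 324 in dCas9 replicate 3, a ratio of 3.52. TUG1 had 1426 counts in core replicate 2 and 440 in dCas9 replicate 3, a ratio of 3.24. Of the other listed genes over 5000 bases, OIP5-AS1 had a ratio of 3.49 and NORAD 2.32. MALAT1 went the other way, with 185 counts in core replicate 2 and 273 in dCas9 replicate 3, a ratio of 0.678. The counts of GAS5 ran from 0.411 to 0.565 per base of transcript over the 12 libraries and those of SNHG5 from 0.453 to 0.619. The handling of duplicate reads was not given in the sources used here, and the part of depth or of RNA quality in these differences was not tested.

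**Figure D5:**
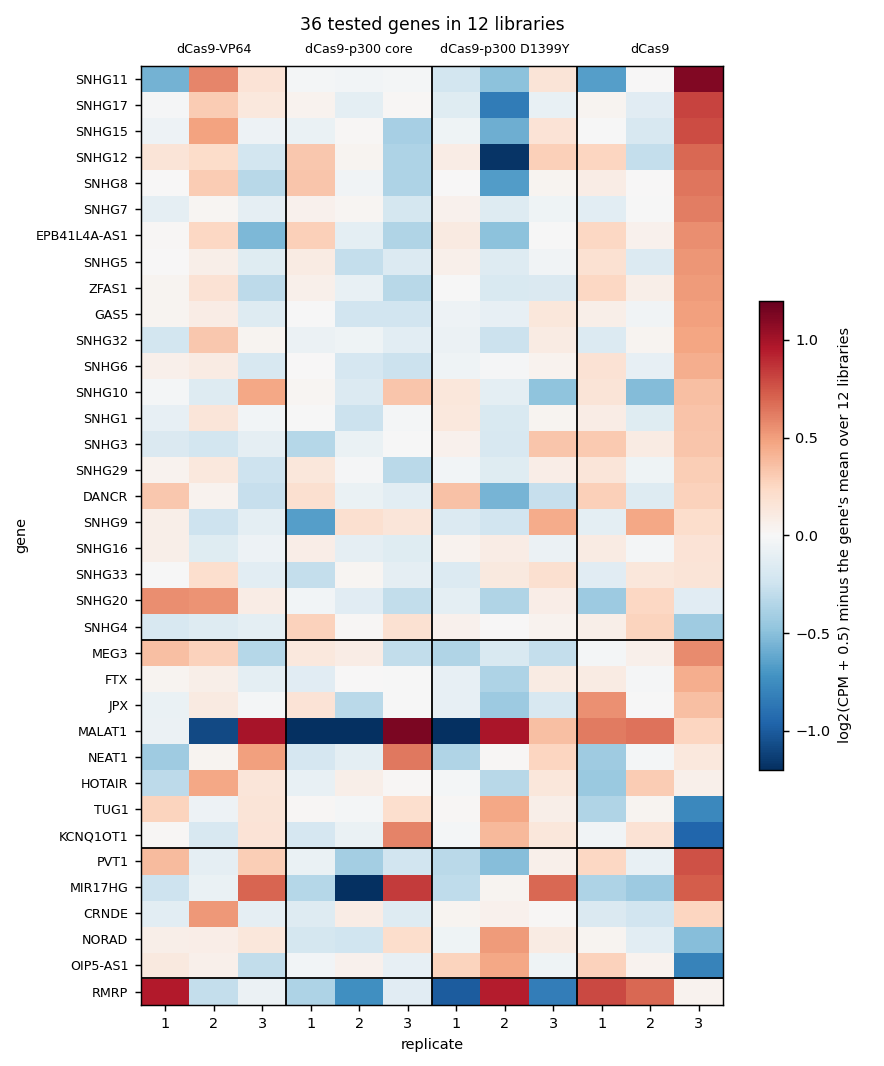
Log2(CPM + 0.5) minus each gene's mean over 12 libraries, for the 36 tested genes (rows, grouped by role) in the 12 libraries (columns, 3 replicates per group, with dCas9 on the right), with stronger values drawn at the ends of the colour scale. The last column, dCas9 replicate 3, is red for most hosts and blue for TUG1, KCNQ1OT1, NORAD and OIP5-AS1, and MIR17HG is red in the replicate 3 column of each group.

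MIR17HG was highest in replicate 3 of each group. It had 9.93, 11.2 and 19.6 CPM in the dCas9-VP64 libraries, 9.27, 4.83 and 21.6 CPM in the core libraries, 9.499, 12.1 and 19.4 CPM in the D1399Y libraries and 9.07, 8.61 and 20 CPM in the dCas9 libraries. The 4 replicate 3 libraries, 1 per group, lay between 19.4 and 21.6 CPM, against 4.83 to 12.1 CPM in the 8 others, and averaged 20.2 ± 0.978 CPM (SD, n = 4) against 9.32 ± 2.16 CPM (SD, n = 8). NEAT1 showed the same order, with 43.3 to 62.1 CPM in the replicate 3 libraries against 29.5 to 40.7 CPM in the others. OIP5-AS1 showed the reverse, with 26.3 to 44.5 CPM against 45.02 to 63.6 CPM. All 4 replicate 3 libraries lay above the 8 others in MIR17HG and NEAT1 and below them in OIP5-AS1, 2 and 1 of the 36 genes, against 1.49% and 1.55% of all tested genes.

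The replicate number was then tested as a factor beside the groups, a comparison chosen after these values were seen. For any difference among the 3 numbers, edgeR called 0 of the 36 genes over all libraries, against 25 of 14613 tested genes (0.171%), and 5 of the 36 and 2524 of all tested genes had an unadjusted p under 0.05. Without dCas9 replicate 3 that test called 4 of the 36 genes, NEAT1 (adjusted p = 0.00351, edgeR), MIR17HG (0.00811), DANCR (0.0396) and MALAT1 (0.0458), against 5.86% of all tested genes. In the 10 libraries of pool CV41 it called 0 of 37 listed genes, against 0.00678% of all tested genes.

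For replicate 3 over the mean of the others, edgeR called 0 of the 36 genes over all libraries, against 0.0% of all tested genes, and 5 of the 36 and 2501 of all tested genes had an unadjusted p under 0.05. MIR17HG stood at log2 1.14 ± 0.18 (adjusted p = 0.111, edgeR) and NEAT1 at log2 0.58 ± 0.11 (adjusted p = 0.123, edgeR). Without dCas9 replicate 3, edgeR called 2 of the 36 genes, against 0.65% of all tested genes. They were NEAT1 at log2 0.65 ± 0.11 (adjusted p = 0.0138, edgeR) and MIR17HG at log2 1.13 ± 0.19 (adjusted p = 0.0146, edgeR), both higher in replicate 3. MALAT1 stood at log2 1.40 ± 0.35 (adjusted p = 0.0668, edgeR) and DANCR at log2 -0.29 ± 0.13 (adjusted p = 0.331, edgeR), and neither was called. Over the other 11 ways of leaving out 1 library, edgeR called 0 of the listed genes, with an adjusted p of 0.101 to 0.377 for MIR17HG and 0.103 to 0.377 for NEAT1. In pool CV41 edgeR called 0 of 37 listed genes, with MIR17HG at log2 1.02 ± 0.26 (adjusted p = 0.163, edgeR). Replicate 3 of the core and D1399Y groups is in pool CV42 and all other libraries in CV41. The meaning of the replicate number was not given in the sources used here, and its cause was not tested.

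Genes that work with these RNAs were drawn from 6 lists, and edgeR called none of their 83 tested members in any of the 5 comparisons. The 23 protein-coding snoRNA hosts had medians of log2 -0.20, -0.25 and -0.14 for dCas9-VP64, core and D1399Y over dCas9, with 19, 19 and 20 members below 0. RPL3, a protein of the large ribosomal subunit whose introns hold snoRNAs, stood at log2 -0.28 ± 0.15 for core over dCas9, and RACK1 at log2 -0.28 ± 0.15. Without dCas9 replicate 3 the medians of this list were -0.053, -0.097 and 0.014, the last on the other side of 0.

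The 13 snoRNP proteins, which bind the snoRNAs or load these proteins, had medians of -0.0064, -0.14 and -0.22 for the same comparisons. NHP2, a core protein of H/ACA particles, stood at log2 -0.39 ± 0.19 for D1399Y over dCas9. NOP58, a core protein of box C/D particles, and NUFIP1, an assembly factor, stood at log2 -0.29 ± 0.16 and -0.33 ± 0.18 for core over dCas9-VP64. The 14 nonsense-mediated decay factors lay near 0, with medians of 0.045, 0.023 and 0.070, and UPF3B at log2 -0.41 ± 0.19 for D1399Y over dCas9.

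The 11 paraspeckle proteins had medians of 0.0092, -0.060 and -0.0083 for dCas9-VP64, core and D1399Y over dCas9. Within this list CPSF6 and NUDT21, subunits of the cleavage factor that sets the 3′ end of NEAT1, stood at log2 0.34 ± 0.15 and 0.35 ± 0.14 for D1399Y over dCas9. In that comparison 6 of the 11 members were below 0. The 10 RNase P and MRP proteins had medians of -0.0044, -0.17 and -0.17. For D1399Y over dCas9, RPP21 stood at log2 -0.73 ± 0.26 and POP7 at -0.43 ± 0.21, whereas POP1 stood at 0.11 ± 0.16. The 12 partners of single long noncoding RNAs, such as PUM2, a protein that NORAD binds, had medians of 0.054, -0.012 and 0.13. Without dCas9 replicate 3, in which the snoRNP proteins stood at a median of 0.45 against their means over 12 libraries, several of these medians moved across 0. The snoRNP medians were then 0.050, -0.011 and 0.0027 for dCas9-VP64, core and D1399Y over dCas9. Those of the decay factors were 0.0035, -0.040 and -0.050, and those of the paraspeckle proteins 0.13, 0.028 and 0.11. The RNase P and MRP medians were 0.075, -0.11 and -0.040, and those of the partners -0.0017, -0.042 and 0.096. For D1399Y over dCas9 with all libraries, UPF3B, CPSF6, NUDT21 and RPP21 had an unadjusted p under 0.05 (edgeR), against 5.89% of all tested genes. Without dCas9 replicate 3 no member of the 6 lists did in that comparison, against 373 of all 14764 tested genes. For core over D1399Y and core over dCas9-VP64, with all libraries, the medians of the 6 lists lay between -0.097 and 0.035.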

How the data were processed

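Messenger RNA libraries of 12 HEK293T samples were analysed from the table of raw read counts per transcript that the authors deposited. Per the submitters' processing notes, Bowtie2, SAMtools, CASAVA, DESeq2 1.6.2 and R 3.1.2 were used, with genome build hg19. The handling of strand, of duplicates and of reads shared by isoforms was not given in the sources used here. Counts of 40709 transcripts were summed into 24395 features by gene name (39324 transcripts named through the RefSeq table, 526 through GENCODE, 859 kept by identifier). The members and lists were chosen with earlier results of these data known.

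Genes were kept with edgeR's filterByExpr (minimum count 10, minimum total 15), scaled by TMM and tested with edgeR 4.0.16 (R 4.3.3) in 1 quasi-likelihood fit over all 12 libraries, with Benjamini-Hochberg adjustment over 14613 genes at 0.05. The edgeR steps were run for core against dCas9 on simulated counts with planted changes. Those counts held no differences by transcript length, replicate number or pool, so that run says nothing of such differences. Every tested member is named with its level. Values per library are given for the 8 members of smallest any-group p, the 8 of highest level per length, and GAS5, NORAD, MALAT1, NEAT1, TERC, RMRP and RPPH1, with at most 3 genes of each supporting list by any-group p. Values for SNHG7, MIR17HG, KCNQ1OT1, OIP5-AS1, SNHG4 and MEG3, and other genes named for p or overlap, were chosen after they were seen. Sequences come from RefSeq tables of GRCh38.p14, whereas the counts use hg19, so no coordinate was carried between builds. The interval for SNHG18 covers counting error only. DESeq2 1.42.0 and limma 3.58.1 were alternatives.

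Same-numbered replicates were checked for pairing by correlating their deviations from the group means. All 3 correlations were over 0.1 for D1399Y against dCas9 (0.237, 0.485 and 0.498) and for core against dCas9-VP64 (0.276, 0.25 and 0.36), and not for the other comparisons.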

Additional observations from a re-analysis of the deposited data

How the results depend on the processing

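In each alternative run, including DESeq2, limma-voom and each library left out, 0 of the listed genes were called in the 5 comparisons and in the any-group test. With the replicate block, the listed genes called were likewise 0 in each comparison, and all genes called were 1 for dCas9-VP64 against dCas9 and 1 in the any-group test.

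Counts of all called genes were small and moved as follows. For dCas9-VP64 against dCas9 (0), they were 1 with DESeq2 and 1 with no filter, and 0 to 1 when 1 library was left out (1 without dCas9 replicate 3). For core against dCas9 (1), they were 2 with RLE scaling, 4 with DESeq2, 2 with limma-voom, 3 with no filter, 3 with 1 CPM in 6 libraries, 3 with the top transcript per gene and 2 with the log2 total count as covariate, and 1 to 2 with 1 library left out. For D1399Y against dCas9 (0), they were 1 under each of those 7 alternatives, and 0 to 1 with 1 library left out. For core against D1399Y (1), they were 4 with DESeq2, 4 with only the 2 groups and 2 with the covariate, and 1 to 5 with 1 library left out. For core against dCas9-VP64 (1), they were 5 with DESeq2, 3 with no filter, 6 with only the 2 groups, 0 in pool CV41, 0 with pool as a term and 2 with the covariate, and 0 to 5 with 1 library left out. The any-group count (3) was 1 in pool CV41, 1 with pool as a term and 1 to 6 with 1 library left out. For the replicate numbers (25), it was 1 in pool CV41 and 1 to 865 with 1 library left out, with 0 to 4 listed genes, and the highest of each was without dCas9 replicate 3.

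The median of the listed genes for core against dCas9 was -0.064 with the covariate and -0.31 to -0.075 with 1 library left out. The covariate and the test of replicate numbers were chosen after seeing the data. For core against D1399Y it was 0.081 in pool CV41 and 0.052 with the covariate, and with the covariate it was -0.015 for dCas9-VP64 against dCas9 and -0.12 for D1399Y against dCas9. NEAT1 for core against dCas9 was -0.065 in pool CV41 and -0.064 (without core replicate 3) to 0.40 with 1 library left out. Over all alternatives GAS5 for core against dCas9 ran from -0.44 to -0.14, PVT1 from -0.77 to -0.26 and MALAT1 from -1.83 to -0.15. For D1399Y against dCas9, SNHG17 ran from -0.79 to -0.27, PVT1 from -0.77 to -0.32, NORAD from 0.20 to 0.50 and TUG1 from 0.35 to 0.76, and TUG1 for dCas9-VP64 against dCas9 from 0.28 to 0.68. The causes were not tested. TERC, H19, RPPH1 and CYTOR had few counts, so their values carry wide counting error. The reason for their low counts was not tested.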

Other observations

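D1399Y replicate 2, with a total of 3700113 counts, stood opposite to dCas9 replicate 3. There the 22 hosts had a median log2 of -0.18 against their means over 12 libraries. DANCR, FTX, JPX, PVT1, SNHG12, SNHG15, SNHG17, SNHG32 and SNHG8, 9 of the 36 genes, were lowest there, and NORAD, OIP5-AS1 and TUG1 were highest. The shares of all tested genes lowest or highest in this library are not given, so these counts are not shown to be particular to the listed genes. Set against the mean of the other 11 libraries, the 5 listed genes over 5000 bases were all above 0 at a median log2 of 0.51, against 0.24 for all genes of that length. The 11 listed genes of 1500 to 5000 bases had a median of -0.36, with 8 below 0, against -0.048 for all genes of that length. Those of 1500 bases or fewer had a median of -0.19, with 15 of 18 below 0, against -0.25 for all genes of that length. The part of RNA quality in this was not tested.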
